A study of Homo sapiens with 14 samples.

Results

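Isoleucine tRNAs are read from 2 kinds of gene in these data, tRNA-Ile-AAT genes without an intron and tRNA-Ile-TAT genes with one. The members were all clusters of type tRNA in the study's cluster list whose name begins with tRNA-Ile, with clusters under 40 nt apart on a strand taken as 1 gene. This gave 17 isoleucine genes of 248 tRNA genes in the list, 12 of them AAT and 5 TAT. The list itself was drawn by the study from these libraries, by a minimum count in several of its experiments, so presence in it is not a result here. Counts were summed on the strand of the gene from 100 nt 5′ to 25 nt 3′ of its clusters.

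The 14 libraries hold cDNAs recovered with TRMT2A, the human methyltransferase that makes 5-methyluridine (m5U) at position 54 of tRNAs. FICC-Seq libraries came from HEK293 cells (n = 3) and HAP1 cells (n = 3) given 100 µM 5-fluorouracil (5FU) for 24 h before endogenous TRMT2A was immunoprecipitated. iCLIP libraries came from the same 2 lines (n = 3 each), with the same antibody and UV light as the crosslinker. miCLIP libraries came from HEK293 cells only (n = 2), harvested 24 h after transfection of a FLAG-tagged TRMT2A whose catalytic glutamate was replaced by alanine, and were recovered with anti-FLAG, so in that method the enzyme was ectopic. HEK293 is a human embryonic kidney line and HAP1 a near-haploid line of leukaemic origin. The condition field of the labels reads untreated for all 14 libraries, FICC-Seq included, while the description and protocol of the FICC-Seq samples give exposure to 5FU, and groups were taken from the titles. The study calls the replicates biological. The labels do not say whether they were separate cultures, and p-values measure the spread between these libraries.

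The enzyme attacks the uracil it methylates through a cysteine. With 5FU in the RNA the covalent intermediate cannot resolve, and with the mutant of miCLIP it resolves poorly. A cDNA count is placed on the nucleotide directly 5′ of where the cDNA begins. After UV crosslinking this is usually the crosslinked residue, since reverse transcriptase stops before it. With a catalytic crosslink the enzyme often copies that residue before it stops, which places the count 1 nt further 5′. tRNA position 54 is the first T of the T-loop motif, and counts at positions 53 and 54 are therefore summed as the stop at U54. Position 58 lies in the same loop and is an adenosine that is N1-methylated in most cytosolic tRNAs, a modification known to stop reverse transcriptase. Isoleucine is decoded by both anticodons, AAT (modified to inosine in its first base) for the common codons and TAT for AUA. Human TAT genes are transcribed with an intron directly after position 37, which the tRNA splicing endonuclease removes. A cDNA that begins in that intron, other than at its last bases, comes from RNA that still holds intron sequence. At the last bases spliced RNA can map too, within the mismatches allowed. It does so without a mismatch where the last intron base equals position 37, an A in TAT-1-1, TAT-2-1 and TAT-3-1.

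The 5 TAT genes are printed here, 5′ to 3′ on the strand of the gene in hg19, because the position of the intron decides how the counts are read. Capitals mark the intron and T54.
tRNA-Ile-TAT-1-1 (chr19:39902808-39902900, minus strand): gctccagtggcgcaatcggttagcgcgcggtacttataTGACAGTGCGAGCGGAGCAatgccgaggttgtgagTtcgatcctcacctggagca
tRNA-Ile-TAT-2-1 (chr2:43037676-43037768, plus strand): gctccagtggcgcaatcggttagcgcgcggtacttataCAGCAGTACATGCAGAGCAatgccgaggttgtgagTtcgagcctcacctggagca
tRNA-Ile-TAT-2-2 (chr6:26988125-26988218, plus strand): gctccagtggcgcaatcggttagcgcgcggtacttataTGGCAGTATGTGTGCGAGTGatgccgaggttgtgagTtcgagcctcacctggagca
tRNA-Ile-TAT-2-3 (chr6:27599200-27599293, plus strand): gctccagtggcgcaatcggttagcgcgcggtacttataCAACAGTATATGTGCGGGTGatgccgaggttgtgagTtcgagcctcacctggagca
tRNA-Ile-TAT-3-1 (chr6:28505367-28505460, plus strand): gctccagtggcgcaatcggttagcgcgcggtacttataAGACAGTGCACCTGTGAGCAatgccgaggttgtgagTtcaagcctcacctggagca

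The introns are 19 nt long in TAT-1-1 and TAT-2-1 and 20 nt in TAT-2-2, TAT-2-3 and TAT-3-1. Without it, TAT-2-1, TAT-2-2 and TAT-2-3 have 1 mature sequence of 74 nt in common, and the intron is where they differ within the gene. All 12 AAT genes are 74 nt long and none has an intron. Of the 17 genes, all 17 matched a RefSeq tRNA gene by symbol, and in all of them the length found here equalled that of RefSeq (its GRCh38 assembly, used for names and lengths only). In the GENCODE annotation of the gene's own strand, TAT-2-2 lies in an exon of LINC00240 and of the tRNA entry TRNAI2, TAT-2-3 in the tRNA entry TRNAI6, AAT-4-1 (chr17:8130309-8130382) in an exon of CTC1, and AAT-5-1 in an exon of a gene with no symbol. The other 13 genes overlap no annotated gene on their strand. Of the AAT genes 9 are on chromosome 6, where AAT-6-1 lies at chr6:26745255-26745328 and AAT-3-1 at chr6:27242990-27243063.

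The 5 genes AAT-5-1 to AAT-5-5 share the same mature sequence, so a read that lies within it fits all 5 and was dropped as not unique. In 13 of the 17 genes the bases from 54 to 73 are shared with at least 1 other tRNA gene of the list. TAT-1-1, TAT-3-1, AAT-4-1 and AAT-9-1 are the exceptions. Values of single genes therefore depend on which cDNAs reached a base that is particular to 1 gene, and are uncertain as levels.

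FICC-Seq libraries held 15982 to 38957 counts, iCLIP libraries 7002 to 17432 and miCLIP libraries 39024 and 104605. The isoleucine genes took 1158 to 2304 counts of each FICC-Seq library, 151 to 283 of each iCLIP library, and 1871 and 5135 of the miCLIP libraries. No pair of replicates had locus counts that differed by as little as counting noise (chi-square test over genes, p at most 0.000447).

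The FICC-Seq libraries numbered 2, of HEK293 and of HAP1, stood apart from replicates 1 and 3 of both lines. In them TAT counts 5′ of position 38, which are the leader, the 5′ exon and the intron, made up 28.3% of all TAT counts in HEK293 (115 of 406, exact Clopper-Pearson 95% interval 24.0 to 33.0) and 44.7% in HAP1 (405 of 907, 41.4 to 48.0). In HEK293 replicates 1 and 3 the same share was 0.234% (1 of 427) and 0.661% (3 of 454). In HAP1 replicate 1 it was 0 of 507, which allows up to 0.592%, and in HAP1 replicate 3 it was 0.852% (5 of 587). The 2 libraries lay above the other 4, and results that change without them are given both ways. By the labels these 2 libraries, and no other, carry 1 particular 5′ barcode, whose part in the result was not tested. Intervals and limits here cover counting error only.

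Both anticodons had their highest FICC-Seq stop at position 53. In replicates 1 and 3, 45.6% of AAT counts lay at position 53, 25.0% at position 54 and 21.03% at position 58. For TAT the same libraries gave 59.4%, 22.3% and 11.8%. No other position held more than 2.49% in either. In replicates 2, TAT counts were at 35.1% at position 53 and 15.8% at position 54, and the next 3 highest lay 37, 17 and 32 nt 5′ of position 53, with 7.08%, 6.78% and 5.18%.

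AAT genes gave 67.4%, 65.6% and 71.8% of their counts at positions 53 and 54 in the 3 HEK293 FICC-Seq libraries, and 69.0%, 71.3% and 73.3% in HAP1. In iCLIP the shares were 28.3%, 27.6% and 10.8% in HEK293 and 19.1%, 33.7% and 15.9% in HAP1. All 6 FICC-Seq libraries were above all 6 iCLIP libraries. The mean was 69.7% ± 2.91 (SD, n = 6) against 22.6% ± 8.70 (n = 6), a difference of 47.2 percentage points (exact permutation test within cell line, two-sided, p = 0.005, the smallest it allows, and 0.0325 after Benjamini-Hochberg adjustment over the 26 permutation tests). With all AAT genes weighted alike the difference was 50.4 points and the exact permutation p was again 0.005, but the adjusted value was 0.065 and the call was lost. It was also lost without any 1 of the HEK293 FICC-Seq libraries (46.3 to 47.8 points, exact permutation p = 0.005 and adjusted 0.065 in each). Without the FICC-Seq libraries numbered 2 it was 47.8 points, at p = 0.01 by the exact permutation test and 0.065 after adjustment. Same-numbered libraries of the 2 lines deviated together within each method, which this test leaves out. Swapping labels within line and number pairs the methods by number, and it leaves that joint deviation out too. There the smallest p the permutation test allows (0.0312) gave an adjusted value of 0.163, so the call was lost. Every other call of the test within cell line was lost under that swap as well.

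TAT genes showed more spread. Positions 53 and 54 held 75.6%, 56.4% and 80.4% of TAT counts in HEK293 FICC-Seq and 84.0%, 48.5% and 85.3% in HAP1. In iCLIP they held 26.1%, 47.0% and 22.2% in HEK293 and 12.5%, 51.5% and 13.3% in HAP1. The low FICC-Seq values and the high iCLIP values are all in replicates numbered 2, and the HAP1 pair of those reaches across the gap between the methods. The difference of 43.0 points (71.7% ± 15.5 against 28.8% ± 16.7, SD, n = 6 each) had p = 0.01 in the exact permutation test and missed the threshold after adjustment (0.052). Without the FICC-Seq libraries numbered 2 the FICC-Seq mean was 81.4% ± 4.34 (n = 4) and the difference 52.6 points (exact permutation p = 0.01, adjusted 0.065). When position 53 was taken alone the difference was 39.6 points, with an exact permutation p of 0.005 and an adjusted value of 0.026.

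Within libraries, TAT and AAT could not be told apart at positions 53 and 54. TAT was higher in 4 of 6 FICC-Seq libraries, with a mean difference of 1.99 points (SD 14.8, exact permutation test with the anticodons swapped within library, p = 0.781, adjusted 0.904), and lower in both replicates 2. The sign turned when genes were weighted alike (-8.53 points) and when TAT-2-3 was left out (-4.42 points). Without the FICC-Seq libraries numbered 2 it was higher by 11.0 points in 4 libraries, where the exact permutation test cannot go below p = 0.125 and gave that value. In iCLIP, TAT was higher in 3 of 6 libraries, by 6.20 points on average (exact permutation p = 0.25, adjusted 0.5).

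In miCLIP, AAT kept most counts at positions 53 and 54, at 63.7% and 64.3% in the 2 libraries, while TAT had 37.1% and 30.9%. Tyr-GTA genes, which also carry an intron after position 37, had 40.7% and 35.5%. All tRNA genes outside isoleucine, with Tyr-GTA included, had 48.0% and 43.2%, so that TAT was the lowest and AAT the highest of these in both libraries. The difference from HEK293 FICC-Seq was -36.8 points for TAT and -4.27 points for AAT. The ranges of the 2 methods did not overlap for either anticodon. The exact permutation test of 2 against 3 libraries cannot go below p = 0.1 and gave 0.1 for TAT and 0.2 for AAT. For AAT the sign turned, to 3.11 points above FICC-Seq, when position 53 was counted alone.

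Position 58 held a smaller part of TAT counts than of AAT counts in every FICC-Seq library. AAT had 23.6%, 24.2% and 20.998% of its counts there in HEK293 and 20.4%, 17.6% and 19.7% in HAP1. TAT had 14.5%, 10.3% and 13.7% in HEK293 and 10.1%, 2.32% and 9.88% in HAP1. TAT was lower in 6 of 6 libraries, by 10.9 points on average (SD 2.997), which gave the smallest p the exact permutation test allows here (0.0312) but missed the threshold after adjustment (0.135). For comparison, all tRNA genes outside isoleucine, with Tyr-GTA included, had 15.5% to 21.6% at position 58 in these libraries. AAT was above them in 4 of 6 libraries and TAT below them in 6 of 6. Tyr-GTA genes had 2.04% to 7.31% there and were below TAT in 5 of 6 libraries, so a share under that of other tRNA genes was not seen in TAT alone.

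In iCLIP the order was not the same. TAT had 35.9%, 18.2% and 20.4% of its counts at position 58 in HEK293 and 31.2%, 11.7% and 52% in HAP1, and AAT 29.6%, 33.3% and 12.9% in HEK293 and 16.1%, 15.2% and 22.0% in HAP1. TAT was higher in 4 of 6 iCLIP libraries (mean difference 6.72 points, exact permutation p = 0.344, adjusted 0.638). Between the methods, TAT at position 58 was lower in FICC-Seq, with a difference of -18.1 points (10.1% ± 4.31 against 28.2% ± 14.6, SD, n = 6 each, exact permutation p = 0.005, adjusted 0.0325). The call was lost without TAT-2-3, the TAT gene with most counts (-10.8 points, adjusted p = 0.532, exact permutation test), and with the TAT genes weighted alike (-8.36 points, adjusted p = 0.483, exact permutation test). It was lost too without any 1 of the 6 FICC-Seq libraries (-18.8 to -16.8 points, adjusted p from 0.104 to 0.26, exact permutation test). Without the FICC-Seq libraries numbered 2 it was -16.2 points (exact permutation test, adjusted p = 0.217). AAT at position 58 was 21.1% ± 2.50 in FICC-Seq and 21.5% ± 8.35 in iCLIP, which differed by less than the spread between libraries (exact permutation p = 0.905). In miCLIP the shares at position 58 were 5.98% and 4.32% for AAT and 1.91% and 2.33% for TAT, lower than in every FICC-Seq library with the exception that TAT in HAP1 replicate 2 (2.32%) lay between the 2 miCLIP values.

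Counts 5′ of position 38 were scarce for AAT in FICC-Seq. They made up 0.173%, 1.60% and 0.238% of AAT counts in HEK293 and 0.169%, 2.45% and 0.431% in HAP1. In iCLIP they made up 8.81%, 5.71% and 36.6% in HEK293 and 9.05%, 12.9% and 15.9% in HAP1. All FICC-Seq libraries were below all iCLIP libraries, with a mean difference of -13.98 points (0.844% ± 0.958 against 14.8% ± 11.2, SD, n = 6 each, exact permutation p = 0.005, adjusted 0.0325). The call was lost when positions with a single count were left out (-12.8 points, adjusted 0.104) and when genes were weighted alike (-14.8 points, adjusted 0.163). It was lost as well without any 1 of the HEK293 FICC-Seq libraries (-14.2 to -13.9 points, adjusted 0.0975 to 0.104). Without the FICC-Seq libraries numbered 2 the difference was -14.6 points, with an exact permutation p of 0.03 and an adjusted value of 0.156.

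TAT counts 5′ of position 38 were at 10.9%, 9.09% and 18.5% in HEK293 iCLIP and at 16.7%, 14.6% and 16% in HAP1 iCLIP. FICC-Seq with all 6 libraries could not be told from this (12.5% ± 19.3 against 14.3% ± 3.61, exact permutation p = 0.87, adjusted 0.941). Without the libraries numbered 2, the 4 FICC-Seq libraries were all below the 6 iCLIP libraries, at 0.437% ± 0.389 (n = 4), a difference of -13.8 points with an exact permutation p of 0.01 and an adjusted value of 0.065. In those 4 libraries TAT and AAT differed by 0.184 points (exact permutation p = 0.375). With all 6, TAT was higher by 11.6 points and in 5 of 6 libraries (exact permutation p = 0.0938, adjusted 0.26).

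In replicates 2 the share was higher in other tRNA genes too, though less so than in TAT. Tyr-GTA genes had 3.85% and 7.81% of counts 5′ of position 38 in replicates 2 of HEK293 and HAP1 and 0.511% to 2.80% in replicates 1 and 3. All tRNA genes outside isoleucine, with Tyr-GTA included, had 4.87% and 7.56% in replicates 2 and 0.633% to 1.56% in the others. Over the 6 libraries the share of TAT was 9.63 points above Tyr-GTA (exact permutation p = 0.469) and 9.76 points above other tRNA genes (p = 0.5, exact permutation), and without replicates 2 both signs turned, to -0.887 and -0.498 points.

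By region, the HEK293 replicate 2 library placed 72 TAT counts in the intron, 39 at positions 1 to 37 and 4 in the leader, and the HAP1 replicate 2 library 253, 148 and 4. None of the other 4 FICC-Seq libraries had a count in a TAT intron. iCLIP had 8 intron counts in HEK293 and 13 in HAP1, 2 to 9 in each library. miCLIP had 139 and 547 intron counts, or 13.98% and 20.3% of all TAT counts. It also had 93 and 420 counts at positions 1 to 37 (9.36% and 15.6%) and 69 and 309 in the leader (6.94% and 11.4%). Of the 686 miCLIP intron counts, 167 lay at the last intron base. Their cDNAs began at the base after the intron, so they hold no intron sequence and can come from spliced RNA. In FICC-Seq 1 count of HEK293 and 7 of HAP1 lay at that base. A further 19 and 70 lay 1 base 5′ of it, so that their cDNAs began at the last intron base. Of these, 56 in TAT-1-1 and 14 in TAT-2-1 began at an A equal to position 37, and can come from spliced RNA too.

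Which nucleotides these were is shown for the highest FICC-Seq position 5′ of position 38 in each TAT gene with at least 10 counts at 1 such position, as 8 bases on either side of it, with the counted base in capitals. The cDNA begins with the base after the capital.
tRNA-Ile-TAT-1-1: gagcggagCaatgccga
tRNA-Ile-TAT-2-1: tacttataCagcagtac
tRNA-Ile-TAT-2-2: ggtacttaTatggcagt
tRNA-Ile-TAT-2-3: ttatacaaCagtatatg
In TAT-1-1 this was base 18 of the 19 in the intron, 17 nt 5′ of position 53, with 14 counts in HEK293 replicate 2 and 42 in HAP1 replicate 2. These cDNAs began at the last intron base, an A equal to the last base before the intron. They can therefore come from spliced RNA too, where the count would belong to position 36, and are not read as intron sequence. A second site in TAT-1-1 was position 36, the last base of the anticodon, with 11 and 39 counts. In TAT-2-1 the highest site was the first base of the intron, with 9 and 36 counts. In TAT-2-2 it was position 36 again, with 15 and 63 counts, and in TAT-2-3 it was intron base 4, with 14 and 35 counts. At each of these sites all FICC-Seq counts came from the 2 libraries numbered 2. The base after the counted one, where the cDNA begins, was A at 10 of the 11 FICC-Seq positions listed among the 3 highest of each gene with at least 10 counts, and T at 0 of 11. These positions were picked by count and recur at like places in genes of nearly the same sequence, so they are not 11 separate sites. The rate of A or T over the whole region was not computed, and no preference for a base is read from this.

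In miCLIP the highest position 5′ of position 38 in TAT-1-1 was the last base of the intron, with 77 counts over the 2 libraries, so that these cDNAs began at position 38, the first base of the 3′ exon. The same site led in TAT-2-2 with 21 counts and shared the lead in TAT-2-1 with 18. In TAT-2-3 the 3 highest were in the leader, 6, 7 and 8 nt before the gene, with 78, 54 and 51 counts. Over all TAT genes, 4.52% of miCLIP counts lay at the last intron base, and 8.23% at position 51, where FICC-Seq had no position among its 5 highest.

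By gene, replicates 2 of FICC-Seq had 161 of 241 counts 5′ of position 38 in TAT-1-1 (66.8%), 158 of 237 in TAT-2-2 (66.7%), 76 of 157 in TAT-2-1 (48.4%), 116 of 659 in TAT-2-3 (17.6%) and 9 of 19 in TAT-3-1. Replicates 1 and 3 had 0 of 150, 0 of 121, 0 of 207, 8 of 1482 and 1 of 15 in the same order. TAT-2-3 therefore had the lowest share of the 5 and the most counts. Of the AAT genes with over 300 FICC-Seq counts, the highest share in replicates 2 was that of AAT-5-5, 12 of 405 (2.96%). AAT-4-1, AAT-5-3 and AAT-9-1 had higher shares in replicates 2, on 14, 18 and 29 counts.

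**Figure D1:**
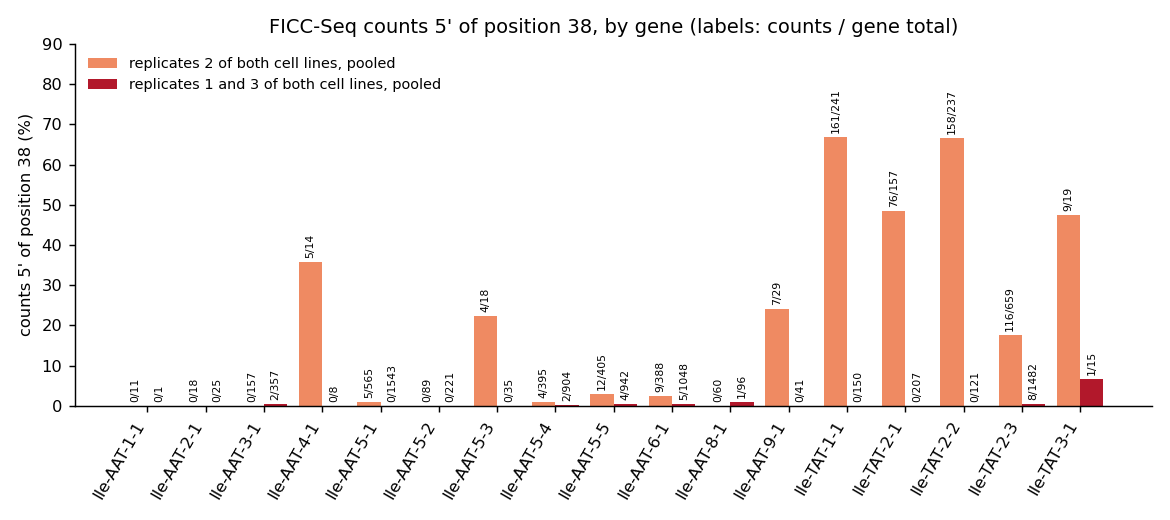
FICC-Seq counts 5′ of position 38 in percent of the counts of each isoleucine gene (y axis; genes on the x axis), pooled over replicates 2 of both cell lines (light bars) and over replicates 1 and 3 (dark bars), with counts over totals above the bars. The light bars of the 5 TAT genes run from 17.6% to 66.8%. The 3 AAT genes with light bars above 20%, AAT-4-1, AAT-5-3 and AAT-9-1, have 14, 18 and 29 counts in replicates 2.

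At the level of single genes, the share at positions 53 and 54 was tested against iCLIP over all 233 tRNA genes with the motif in the window (limma on the log2 ratio of counts there to counts elsewhere, pseudocount 0.5). It was higher in FICC-Seq in 10 of 11 AAT genes and in 2 of 5 TAT genes, against a background of 72.1% of all genes tested. The share was lower in 0 genes by limma (0%), with 175 of the 233 at an unadjusted p under 0.05 in either direction. The rise was 3.40 ± 0.32 (log2 ± SE) in AAT-6-1, from 16.1% of pooled counts in iCLIP to 69.1% in FICC-Seq (limma adjusted p = 1.09e-07). It was 2.66 ± 0.33 in AAT-5-1 (24.5% to 69.9%) and 3.34 ± 0.46 in TAT-2-3 (25.4% to 78.2%). The AAT gene that did not pass was AAT-4-1 (1.76 ± 0.91), which had 22 FICC-Seq counts. TAT-2-1 was the other TAT gene called, at 1.99 ± 0.64 (limma adjusted p = 0.0106). The 3 remaining TAT genes were not called, at 0.49 ± 0.99 in TAT-1-1, 0.23 ± 1.08 in TAT-2-2 and -0.26 ± 1.02 in TAT-3-1.

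For TAT-1-1 and TAT-2-2 this turned on replicates 2. Without those 2 libraries the log2 ratio was 2.90 higher than in iCLIP in TAT-1-1 (limma adjusted p = 0.00085) and 2.33 higher in TAT-2-2 (0.00479), and both passed. AAT-8-1 then no longer passed (1.43, limma adjusted p = 0.0503), so that 13 isoleucine genes were higher in place of 12. AAT-2-1 lost its call without HEK293 FICC-Seq replicate 3 (1.53, limma adjusted p = 0.661), and leaving out HAP1 replicate 2 alone was enough for TAT-1-1 (2.51, 0.00473) and TAT-2-2 (1.77, 0.0418) to pass. In replicates 1 and 3, positions 53 and 54 held 124 of 150 counts of TAT-1-1 (82.7%), 159 of 207 of TAT-2-1 (76.8%), 105 of 121 of TAT-2-2 (86.8%) and 1217 of 1482 of TAT-2-3 (82.1%). In replicates 2 they held 26.1%, 42.0%, 30.4% and 69.5%.

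The level of isoleucine tRNAs was higher in FICC-Seq than in iCLIP. They took 8.07%, 8.46% and 7.30% of all counts at tRNA genes in HEK293 FICC-Seq and 7.52%, 8.22% and 7.03% in HAP1, against 3.25%, 3.60% and 3.96% in HEK293 iCLIP and 4.60%, 4.89% and 4.44% in HAP1. No library of one method reached into the range of the other. The means were 7.77% ± 0.566 and 4.13% ± 0.629 (SD, n = 6 each), a difference of 3.64 points (exact permutation p = 0.005, adjusted 0.0325). Without any 1 of the HEK293 FICC-Seq libraries the exact permutation p was again 0.005 (3.51 to 3.80 points), but the adjusted value was 0.065 and the call was lost. It was 3.36 points without the libraries numbered 2, with an exact permutation p of 0.01 and an adjusted value of 0.065. In miCLIP the share was 8.64% and 8.48%.

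The balance of the anticodons differed less between those 2 methods. TAT made up 27.0%, 35.1% and 26.5% of isoleucine counts in HEK293 FICC-Seq, 30.1%, 39.4% and 26.5% in HAP1 FICC-Seq, 36.1%, 37.5% and 35.8% in HEK293 iCLIP and 19.1%, 36.4% and 36.2% in HAP1 iCLIP. The ranges overlapped, and the difference of -2.77 points had an exact permutation p of 0.53 (adjusted 0.78). It was -6.00 points without the FICC-Seq libraries numbered 2 (exact permutation p = 0.17, adjusted 0.402). In miCLIP, TAT was at 53.1% and 52.6%, above every other library and 23.4 points above HEK293 FICC-Seq, with p = 0.1 in the exact permutation test, the smallest value 2 against 3 libraries allow. Between HEK293 and HAP1 no difference was detectable in FICC-Seq in the TAT share of isoleucine counts (-2.49 points, HEK293 minus HAP1), in the TAT share at positions 53 and 54 (-1.81 points) or in that 5′ of position 38 (-5.43 points), with exact permutation p of 0.6, 0.8 and 0.8 and a smallest possible value of 0.1 in each. Without the libraries numbered 2 these differences were -1.58, -6.67 and 0.0216 points. Bulk counts cannot tell more tRNA of a kind from more crosslinking of each molecule.

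Among single genes, TAT-2-3 had the highest FICC-Seq level, 1.57% ± 0.151 of tRNA counts (SD, n = 6), followed by AAT-5-1 (1.51% ± 0.213), AAT-6-1 (1.08% ± 0.343), AAT-5-5 (0.982% ± 0.116) and AAT-5-4 (0.935% ± 0.0764). These 5 overlap their neighbours in the order, but all 6 libraries of AAT-5-4 were above all 6 of the next gene, AAT-3-1 (0.385% ± 0.0952). TAT-1-1 (0.290%), TAT-2-2 (0.265%), TAT-2-1 (0.263%) and AAT-5-2 (0.221%) followed without a gap, and all libraries of AAT-5-2 were above those of AAT-8-1 (0.109%). The place of these TAT genes rests on the libraries numbered 2. Without them the means over 4 libraries were 0.157% for TAT-1-1, 0.125% for TAT-2-2 and 0.212% for TAT-2-1, all below AAT-5-2 (0.222%), and AAT-5-1 (1.60%) was above TAT-2-3 (1.55%). The remaining 6 genes were each at 0.0542% or below. TAT-3-1 had 34 FICC-Seq counts in all.

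TAT-2-3 had 318, 225 and 337 counts in HEK293 FICC-Seq, 399, 434 and 428 in HAP1 FICC-Seq, 24 to 65 in iCLIP and 398 and 1164 in miCLIP. TAT-1-1 had 36, 67 and 38 in HEK293 FICC-Seq and 33, 174 and 43 in HAP1 FICC-Seq, 5 to 25 in iCLIP, and 353 and 871 in miCLIP. TAT-2-2 followed TAT-1-1 closely in FICC-Seq, with 23, 66 and 25 in HEK293 and 34, 171 and 39 in HAP1. For both genes the libraries numbered 2 are the high ones. TAT-2-1 had 47, 46 and 51 in HEK293 and 34, 111 and 75 in HAP1, and TAT-3-1 had 3, 2 and 3 in HEK293 and 7, 17 and 2 in HAP1. Of the AAT genes, AAT-5-1 had 299, 173 and 336 counts in HEK293 and 425, 392 and 483 in HAP1, with 29 to 60 in iCLIP. AAT-5-5 had 226, 129 and 249 in HEK293 and 211, 276 and 256 in HAP1, with 7 to 19 in iCLIP. AAT-5-4 had 176, 132 and 189 in HEK293 and 229, 263 and 310 in HAP1, with 13 to 36 in iCLIP. AAT-3-1 had 93, 71 and 87 in HEK293 and 61, 86 and 116 in HAP1, with 0 to 14 in iCLIP. AAT-5-2 had 42, 32 and 42 in HEK293 and 47, 57 and 90 in HAP1, with 7 to 23 in iCLIP. AAT-1-1, whose summed window ended before its position 53, had 12 counts in all of FICC-Seq. It enters totals and the tests of level, but no share by position.

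Tested over all 248 tRNA genes (limma, voom weights, library size the sum over tRNA genes), 6 isoleucine genes were higher in FICC-Seq than in iCLIP and 5 were lower, where 25.8% of all genes were called higher and 37.1% lower. The higher ones were AAT-3-1 (log2 difference 2.18 ± 0.43, SE), AAT-5-5 (1.89 ± 0.25), AAT-6-1 (1.60 ± 0.23), AAT-5-1 (1.09 ± 0.18), TAT-2-3 (1.00 ± 0.18) and AAT-5-4 (0.91 ± 0.19), with limma adjusted p from 2.19e-06 to 0.000383. The lower ones were AAT-1-1, AAT-2-1, AAT-4-1, AAT-5-3 and AAT-8-1, from -3.17 to -0.98, on 12 to 156 FICC-Seq counts each. The -3.17 is that of AAT-1-1, whose window ended before position 53. The positions that held most AAT counts in FICC-Seq could not be counted there, so its call is not read as a lower level. AAT-4-1 lost its call in 10 of the 14 fits that left out 1 library (limma adjusted p up to 0.154), and AAT-8-1 in 3, those without HEK293 FICC-Seq replicate 3, HEK293 iCLIP replicate 2 or HAP1 iCLIP replicate 2 (up to 0.123). The other 4 TAT genes were not called, with log2 differences between -0.05 and 0.91. Without the libraries numbered 2 the sign turned for TAT-1-1 (-0.30) and TAT-2-1 (-0.0789). AAT-5-1 to AAT-5-5, with their common mature sequence, thus gave 3 higher, 1 lower and 1 uncalled gene. These directions are relative to the sum over tRNA genes, and the median of all genes was -0.06 on this scale. With the total of the whole library as library size that median was 0.52 and 58.2% of all calls were higher in place of 41.03%, while with median-ratio size factors it was -0.37 and 35.3%. The number of isoleucine genes called lower was then 3 with whole-library totals, TAT-2-2 passed there (1.54, limma adjusted p = 0.0497), and the 6 higher genes kept their sign under both.

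In miCLIP against HEK293 FICC-Seq, 3 TAT genes were higher and none was lower, and 6 AAT genes were higher and 5 lower, where 53.6% of all genes were called higher and 26.2% lower. The 6 higher AAT genes include AAT-1-1, whose window did not reach position 53. TAT-1-1 rose by 2.75 ± 0.40 (log2 ± SE, limma adjusted p = 3.78e-06), TAT-3-1 by 2.61 ± 0.72 and TAT-2-2 by 1.98 ± 0.51. TAT-2-3, at a mean of 1.88% of tRNA counts against 1.57%, did not pass (0.28 ± 0.17), nor did TAT-2-1 (0.49 ± 0.30), which passed without the libraries numbered 2 (0.65, limma adjusted p = 0.0436). AAT-4-1 had 127 and 358 counts in miCLIP against 1, 3 and 0 in HEK293 FICC-Seq and was higher by 6.37 ± 0.90. The 5 lower ones were AAT-3-1, AAT-5-1, AAT-5-4, AAT-5-5 and AAT-6-1, from -1.65 to -0.96. The median over all genes was 1.10 in this comparison, and 0.54 with whole-library totals.

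Between the cell lines, within FICC-Seq, 1 isoleucine gene was higher in HEK293 and 1 lower, where 8.47% and 6.85% of all genes were called. AAT-6-1, with 282, 175 and 332 counts in HEK293 and 148, 213 and 286 in HAP1, was higher in HEK293 by 0.83 ± 0.17 (log2 ± SE, limma adjusted p = 0.0013). AAT-2-1, with 0, 0 and 1 counts in HEK293 and 9, 18 and 15 in HAP1, was lower (limma adjusted p = 0.0013). The difference between FICC-Seq and iCLIP did not itself differ between the lines for any gene (0% of the 248 called in either direction by limma, with 27 genes and 2 isoleucine genes at an unadjusted p under 0.05).

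Of the 145 genes outside isoleucine with at least 100 FICC-Seq counts, the 3 whose level followed the summed TAT level most closely over the 14 libraries were tRNA-Asp-GTC-2-6 (Pearson r = 0.888), tRNA-Ser-AGA-2-3 (0.876) and tRNA-Ser-CGA-4-1 (0.829), on the log2 of the share of tRNA counts plus 0.01%. No p is given. The libraries share method and depth within groups, and the values are a description.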

How the data were processed

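The deposited files list, per library, the genome position of each cDNA and a whole cDNA count whose sign gives the strand. Per the methods, the authors made this signed score with iCount, dropped PCR duplicates by random barcodes, and mapped reads to hg19 with bowtie, ungapped, with at most 2 mismatches and only where they mapped uniquely. Reads that run further across a spliced junction than 2 mismatches allow therefore could not map. Reads that pass it within 2 mismatches could, which is more than 2 bases where an intron base equals the exon base it stands for. Reads common to identical genes were dropped. The study drew its cluster list from these libraries.

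Here absolute counts were summed per gene and position. Position 53 is the G of GTTCNANNC, found in 233 of 248 genes, and position 38 lies 15 nt 5′ of it. Of the AAT genes, AAT-1-1 enters totals and the tests of level only, and no share by position. Library totals ranged from 7002 to 104605 counts. Shares per library were compared by exact permutation tests, two-sided, with Benjamini-Hochberg adjustment over 26 tests and a threshold of 0.05. Genes were fitted together in limma 3.58.1 (R 4.3.3), with at least 20 counts per gene, levels with voom weights, and the share at positions 53 and 54 as a log2 ratio with a pseudocount of 0.5, weighted by counting variance plus the variance between libraries (0.237). The design had named edgeR and DESeq2 for these fits, which were not used because the deposited values are signed. Members and lists were chosen with earlier results of these data known. Values per library are given for TAT genes and for genes with at least 300 FICC-Seq counts. Same-numbered FICC-Seq libraries of HEK293 and HAP1 deviated together (r of 0.41, 0.64 and 0.34), as did those of iCLIP (0.19, 0.35 and 0.13), with r over 0.1 for every number. For FICC-Seq number 3 only, the r with a library of another number was higher still (0.37). Between FICC-Seq and iCLIP the same-numbered r ranged from 0.01 to 0.25 and were not over 0.1 for every number, so numbers were not taken to pair the methods. Left-out libraries, windows, weights, library sizes and replicate blocks were tried as alternatives. The sequence of 1 group of AAT genes is not reported here.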

Additional observations from a re-analysis of the deposited data

Results flagged for a closer look

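Counts on the strand opposite to a gene were found at 1 isoleucine gene only, tRNA-Ile-TAT-2-2, and stood out because such counts are not part of any comparison. There were 6 in FICC-Seq HAP1 replicate 3 and 4 in iCLIP HAP1 replicate 3, above the 3 counts that a count of 0 allows. All other libraries had 0 there, and the other 16 genes had 0 in all 14 libraries.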

How the results depend on the processing

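Of 554 alternatives for the shares, 493 kept direction and side of the threshold. Of 188 for the numbers of isoleucine genes called, 184 stayed within 1.5 times the main count, and of 972 for single genes, 915 kept direction and side. Differences below are FICC-Seq minus iCLIP in percentage points unless said otherwise. The cause of each change was not tested. The replicate block, with labels swapped within cell line and number, left the 4 calls at 3.64 (isoleucine share), 47.2 (AAT at 53 and 54), -13.98 (AAT 5′ of 38) and -18.1 (TAT at 58), but its smallest p of 0.0312 gave an adjusted exact permutation p of 0.163 for each. In the limma fits the block added TAT-2-2 to the genes higher in FICC-Seq (1.08, adjusted p = 0.0488). The HEK293 against HAP1 comparisons kept their side under the block.

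Leaving out both FICC-Seq libraries numbered 2, an alternative chosen after seeing the data, gave 3.36, 47.8, -14.6 and -16.2 in the same order, none of them past the threshold. It turned the sign of TAT 5′ of 38 between HEK293 and HAP1 (0.0216), TAT minus Tyr-GTA (-0.887) and TAT minus other tRNA genes (-0.498) 5′ of 38, and AAT minus other tRNA genes at 53 and 54 (-0.0578). On the log2 scale it turned the level of TAT-1-1 (-0.30) and TAT-2-1 (-0.0789) and the share at 53 and 54 of TAT-3-1 (0.12).

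Without positions of a single count, AAT 5′ of 38 was -12.8 and lost its call, and TAT 5′ of 38 became 7.30. Position 53 alone gave TAT 39.6, now called, AAT in miCLIP minus FICC-Seq 3.11, and TAT-2-2 -0.0318 on the log2 scale. Genes weighted alike gave AAT 50.4 at 53 and 54, AAT -14.8 5′ of 38 and TAT -8.36 at 58, all no longer called, and turned TAT minus AAT at 53 and 54 in FICC-Seq (-8.53), TAT minus AAT 5′ of 38 in iCLIP (2.94) and TAT minus other tRNA genes at 53 and 54 (-1.59). Without TAT-2-3 the same 3 were -4.42, 3.43 and -2.88, TAT at 58 was -10.8 and not called, and TAT 5′ of 38 was 0.801. The gene window gave AAT at 58 as 0.0305, and a border of 20 nt gave TAT minus AAT 5′ of 38 in iCLIP as 0.263.

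With whole-library totals 3 isoleucine genes were lower in FICC-Seq, and the log2 level difference was 0.55 for TAT-3-1 and, in miCLIP minus FICC-Seq, -0.0698 for TAT-2-1 and -0.27 for TAT-2-3. Median-ratio size factors, added after seeing the data, gave -0.26 for AAT-5-2, -0.0061 for TAT-1-1 and -0.13 for TAT-2-1. DESeq2 and TMM were not run.

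With 1 library left out, the isoleucine share ranged from 3.48 to 3.80, AAT at 53 and 54 from 44.3 to 49.9, AAT at 58 from -3.52 to 1.59, AAT 5′ of 38 from -16.8 to -9.10, TAT at 58 from -23.1 to -13.0 and TAT 5′ of 38 from -9.20 to 1.96. TAT minus AAT ranged from -0.621 to 6.94 at 53 and 54 in FICC-Seq and from -2.17 to 2.96 5′ of 38 in iCLIP, and AAT minus other tRNA genes from -0.0586 to 2.75. HEK293 minus HAP1 ranged from -5.27 to 1.202 for the TAT share of isoleucine counts, -13.9 to 5.39 for TAT at 53 and 54 and -14.7 to 9.31 for TAT 5′ of 38. Leaving out any HEK293 FICC-Seq library lost the calls of the isoleucine share, AAT at 53 and 54 and AAT 5′ of 38, and leaving out any FICC-Seq library lost that of TAT at 58. For the isoleucine share and AAT at 53 and 54 the exact permutation p stayed at 0.005 in these, and the adjusted value rose to 0.065. Isoleucine genes lower in FICC-Seq numbered 3 to 5, with 3 without HEK293 FICC-Seq replicate 3, HEK293 iCLIP replicate 2 or HAP1 iCLIP replicate 2.

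On the log2 scale the level difference with 1 library left out ranged from -0.0651 to 0.21 for AAT-5-2, -0.10 to 0.48 for TAT-1-1, -0.00089 to 0.32 for TAT-2-1, -0.54 to 0.42 for TAT-3-1 and, in miCLIP minus FICC-Seq, -1.08 to 0.72 for AAT-9-1. The share at 53 and 54 ranged from -0.25 to 1.77 for TAT-2-2 and -1.07 to 0.54 for TAT-3-1. With 48 to 103 TAT counts, iCLIP libraries limit what can be told of TAT.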
